A study of Mus musculus with 10 samples.

Results

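The genes described here encode respiratory complexes II to V of the mitochondrion: 4 genes of complex II, 9 of complex III, 10 of complex IV and 15 of complex V. They were the 38 nuclear subunit genes of a list, found by symbol in the array's gene annotation, and each was measured by its brightest row that names 1 gene. Of the 38, 37 had such a row, among 30142 genes in all, and all 37 lay above the signal floor that left 17800 genes to test. Atp5c1, the gamma subunit of ATP synthase, had no row naming it alone and was not analysed here.

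The arrays compared cells of 4T1, a mouse mammary carcinoma cell line, in dense collagen gels of 3.5 mg/mL (HD, 5 arrays) and in looser gels of 2 mg/mL (LD, 5 arrays). Both groups started from 50000 cells and were grown in RPMI with 10% FBS for 5 days (37 °C, 5% CO2; fresh medium on day 3); neither carried a drug or an engineered allele by the labels. Total RNA went onto Affymetrix MTA 1.0 arrays, and all values are log2 RMA signals of single arrays, whose number limits the precision. The labels do not say whether the 5 samples of a group were separate cultures, and p-values here reflect the variation among those samples, be it biological or technical.

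Electrons from succinate enter the respiratory chain at complex II (succinate dehydrogenase, also an enzyme of the citric acid cycle) and reach complex III (the cytochrome bc1 complex) through ubiquinone. Cytochrome c carries them on to complex IV (cytochrome c oxidase), which reduces oxygen to water, and complexes III and IV pump protons across the inner membrane. Complex V, the ATP synthase, lets the protons flow back through a rotating ring and makes ATP. All subunits of complex II come from nuclear genes, whereas complexes III, IV and V also hold subunits encoded by mitochondrial DNA. In cultured tumour cells this pathway works beside glycolysis as a source of ATP.

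Of the 37 members measured, 30 rose in HD and 0 fell (limma, Benjamini-Hochberg adjusted over all genes tested), 81.1% of them, where 31.4% of all genes tested rose and 19.5% fell. With a stricter signal floor of 6.96, again 30 members rose and 0 fell, where 4201 of 10907 genes rose and 2634 fell. Among these brighter genes the shares that rose and that fell were thus both larger than among all genes tested. The 5 HD values lay wholly above the 5 LD values for 28 members, against 21.6% of all genes tested. The member changes were small: their median was 0.24 on the log2 scale, beside 0.06 for all genes tested, and they ranged from -0.0026 to 0.64. By complex, 2 of 4 measured genes of complex II rose (median change 0.20), 7 of 9 of complex III (0.35), 9 of 10 of complex IV (0.23) and 12 of 14 of complex V (0.29). The 7 that did not pass the test were Sdha, Sdhc, Uqcrc1, Uqcrc2, Cox7b, Atp5a1 and Atp5g2. A rise of at least 1.5-fold was called for 2 members, Uqcrq and Atp5l, and for 0.775% of all genes tested; Atp5l reached it on a row placed on another chromosome and not on its own chromosome's row (0.41). Among the 37 changes, 27 lay above the upper quartile of all genes tested (0.15) and 17 above their 90th percentile (0.28).

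**Figure D1:**
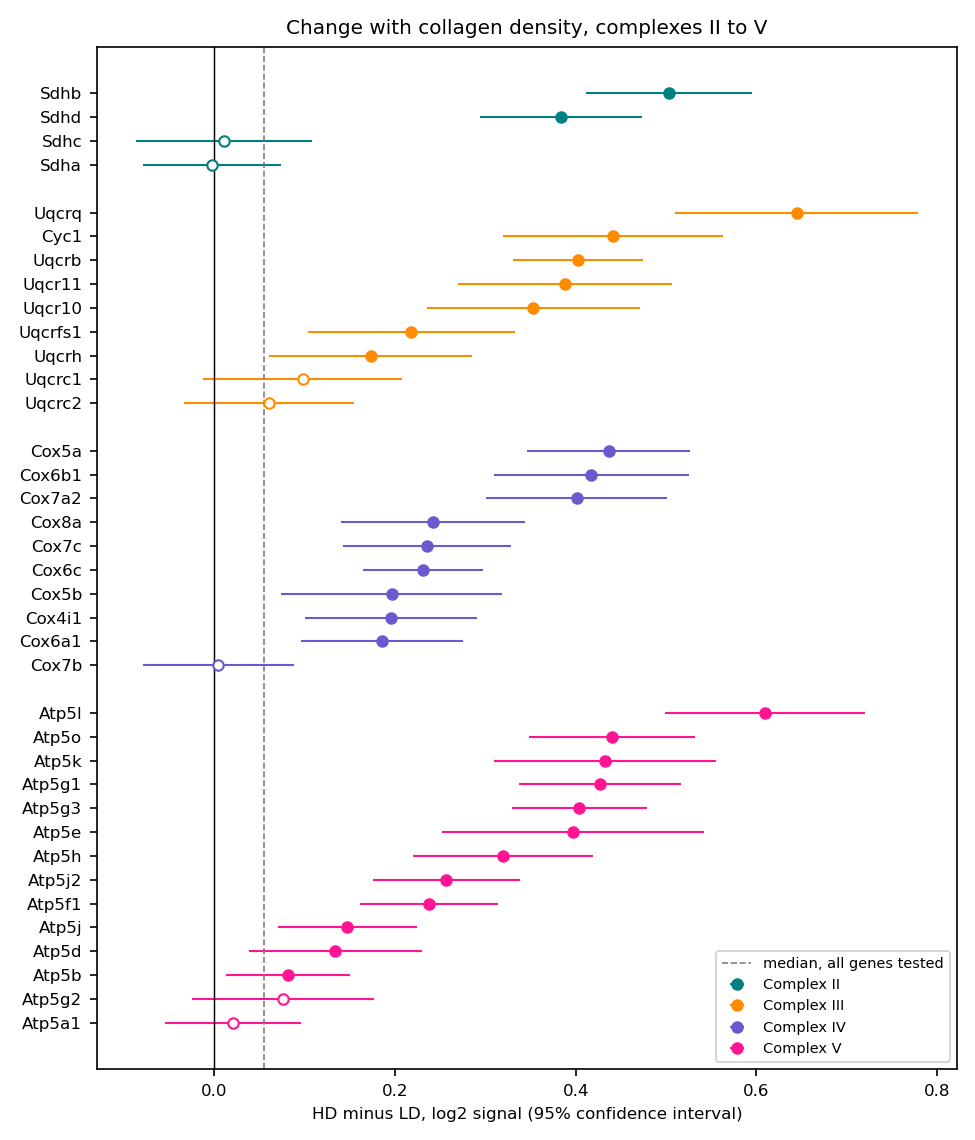
Change of each measured member of complexes II to V (HD minus LD, log2 signal; points with 95% confidence intervals; members grouped by complex; filled where limma called a rise; the dashed line is the median of all genes tested). Most intervals lie to the right of 0, and the 7 members not called sit at changes of 0.10 or less.

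The counts depended on how arrays were put on 1 scale. Control rows of the array moved with the groups: the positive control rows had a median of 9.28 ± 0.0448 in HD and 9.21 ± 0.0111 in LD, and the rows named as negative controls 5.42 ± 0.124 in HD and 5.67 ± 0.0516 in LD (SD, n = 5 each). The background rows went the other way from the negative controls, at 3.63 ± 0.0574 in HD and 3.47 ± 0.0551 in LD with no overlap of arrays, and the rows named ERCC stood at 4.52 ± 0.0878 in HD and 4.43 ± 0.0485 in LD with overlap. With each array scaled linearly on its negative and positive control rows, 25 members rose and 4 fell (Cox6a1, Atp5a1, Atp5b and Atp5g2), and over all genes 8742 rose and 3396 fell, where 5589 rose and 3467 fell as deposited. Rises thus made up 72.0% of the calls under that scaling and 61.7% as deposited, and the medians were 0.25 for the members and 0.13 for all genes. Among the 25 that still rose, 5 changes moved by over 1.5 times, to 0.25 for Sdhd, 0.26 for Uqcrb, 0.34 for Uqcrfs1, 0.23 for Cox6b1 and 0.15 for Atp5f1. Every member's mean signal lay above the negative control medians in both groups, the lowest being Uqcrfs1 at 7.14 in HD and Uqcr10 at 6.89 in LD. Fewer cells of a type and less RNA per cell cannot be told apart in such bulk samples.

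Markers of the labelled cell type were present. All 8 epithelial markers lay above the floor, and their mean signal per array ranged from 10.13 to 10.24 in HD and from 10.51 to 10.53 in LD. Of them 0 rose and 5 fell, where 31.4% of all genes tested rose and 19.5% fell. The largest falls were those of Cldn4 (a claudin), Krt19 (a keratin) and Epcam (a cell adhesion protein), at -1.09, -0.76 and -0.60 on the log2 scale. Krt18 and Cdh1 fell by less, at -0.129 and -0.105, and Krt7 (-0.04), Krt8 (0.03) and Cldn7 (0.02) were not called. The mean of 5 measured leukocyte markers ranged from 5.11 to 5.18 in HD and from 5.21 to 5.25 in LD, with Ptprc, Csf1r and Adgre1 below the floor. Within that list Cd68, a lysosomal protein of macrophages, was by far the brightest, with means of 7.83 in HD and 8.57 in LD, and fell by 0.74. Cd3e of T cells was called 0.16 higher with overlapping groups. Its means of 5.45 in HD and 5.29 in LD lay near or below the negative control medians, and the call was not taken as a reading of its expression. For 5 measured fibroblast markers the range was 5.06 to 5.29 in HD and 5.00 to 5.14 in LD, with Dcn and Lum below the floor. Col3a1 was called 0.15 higher with overlapping groups. Its mean of 5.65 in LD lay near the negative control median there (5.67), and its mean of 5.80 in HD above that of HD (5.42). Col1a1 (6.80 in HD, 6.71 in LD) and Col1a2 (6.06 in HD, 5.93 in LD) lay above these medians in both groups and were not called. None of 4 endothelial markers lay above the floor. The part of these shifts in the member changes was not tested.

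Complex II showed both outcomes. Its flavoprotein Sdha holds the succinate site and its iron-sulphur protein Sdhb passes electrons on, while Sdhc and Sdhd anchor the enzyme in the membrane and form the ubiquinone site. Start-site windows of Sdhb, which rose, and of Sdha, which did not pass the test, are printed here to show the letters of the catalytic pair at motifs of known regulators of respiratory genes. The windows run from 250 bases before to 50 bases after the annotated start (RefSeq, GRCm38.p6, 5′ to 3′ on the gene's strand), and capitals mark matches to CCGGAAG, a motif of ETS factors such as GABP, or to the NRF1 motif, GCGCA followed by any base and GCGC, on either strand. Sdhb lies at chr4:140961021-140961320 (plus strand) and has 1 ETS match, whereas Sdha, at chr13:74350191-74350490 (minus strand), has 3 NRF1 matches. The window of Sdhd, which also rose, has matches to both motifs.
Sdhb: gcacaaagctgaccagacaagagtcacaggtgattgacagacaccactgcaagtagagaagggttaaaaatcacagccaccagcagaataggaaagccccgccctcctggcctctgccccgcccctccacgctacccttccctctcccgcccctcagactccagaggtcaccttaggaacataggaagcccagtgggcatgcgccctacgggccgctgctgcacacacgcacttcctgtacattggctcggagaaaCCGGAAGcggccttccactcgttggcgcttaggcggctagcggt
Sdha: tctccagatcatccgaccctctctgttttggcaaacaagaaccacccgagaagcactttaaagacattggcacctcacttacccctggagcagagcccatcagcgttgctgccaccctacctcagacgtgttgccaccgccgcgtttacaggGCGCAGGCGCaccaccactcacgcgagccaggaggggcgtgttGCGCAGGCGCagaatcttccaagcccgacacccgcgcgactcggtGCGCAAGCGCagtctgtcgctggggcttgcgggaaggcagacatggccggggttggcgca

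Sdhb had signals of 9.31, 9.49, 9.43, 9.37 and 9.33 in HD arrays, against 8.84, 8.85, 8.92, 8.85 and 8.96 in LD arrays. All HD values lay above all LD values, and the change was 0.50 ± 0.0428 (SE), or 1.42-fold (limma adjusted p = 7.1e-07). Sdhd had 10.34, 10.32, 10.29, 10.21 and 10.20 in HD, against 9.85, 9.92, 9.89, 9.82 and 9.96 in LD. Its groups were also apart, and it rose 1.30-fold (0.38 ± 0.0417 SE, limma adjusted p = 5.7e-06). Sdha had 8.80, 8.73, 8.79, 8.71 and 8.70 in HD, against 8.74, 8.80, 8.73, 8.71 and 8.77 in LD. These groups overlapped through most of their range, and the 95% interval of the Sdha difference was -0.08 to 0.07. The Sdhc difference was 0.01, with an interval of -0.09 to 0.11 and overlapping groups.

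Within each array the genes of complex II could be set against each other as log ratios, compared between groups by a two-sided exact permutation test over 5 against 5 arrays, whose smallest possible p is 0.0079. This was done for 9 pairs, 6 in complex II and 3 in the subunit c family described further on, with p adjusted over the 9. Sdhb over Sdha differed by 0.51 between HD and LD, Sdhb over Sdhc by 0.49, Sdhd over Sdha by 0.39 and Sdhd over Sdhc by 0.37, each with the smallest exact p of 0.0079 (adjusted 0.012). Sdhb and Sdhd thus changed more than Sdha and Sdhc in the same arrays. The ratio of Sdhb over Sdhd differed by 0.12 (exact p = 0.04, adjusted 0.051) and that of Sdhc over Sdha by 0.01 (exact p = 0.86), and in both pairs the groups overlapped.

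**Figure D2:**
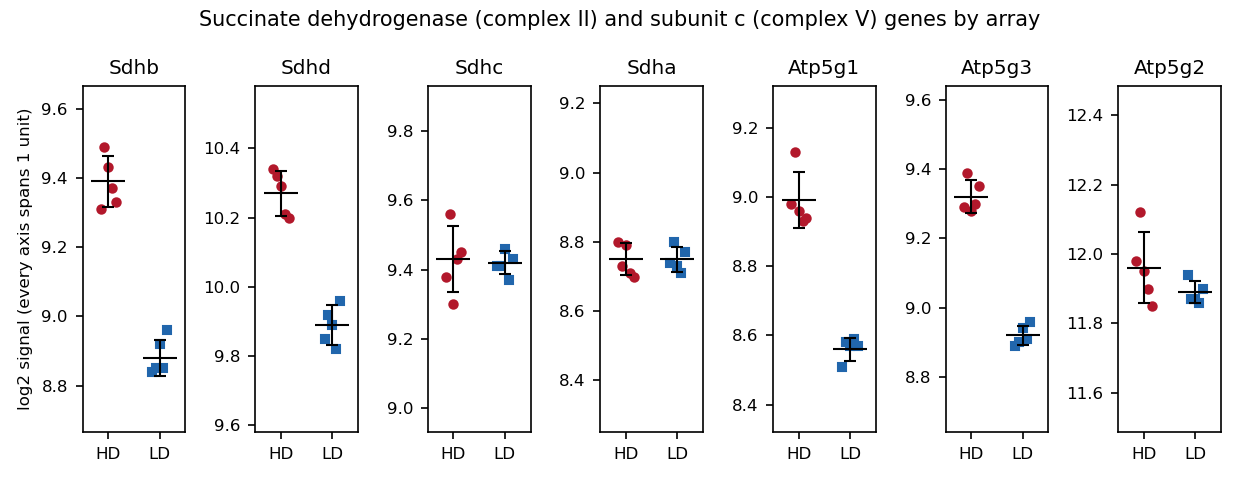
Log2 signal in each array for the 4 genes of complex II and the 3 subunit c genes of complex V (points are arrays, HD left of LD; lines are means with SD, n = 5 each; every axis spans 1 log2 unit). Sdhb, Sdhd, Atp5g1 and Atp5g3 have HD arrays wholly above LD arrays, and Sdha, Sdhc and Atp5g2 overlap.

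In complex III 7 genes rose and 2 did not pass the test. The 5 small subunits without redox groups all rose, with a median change of 0.39, and so did both redox subunits, whereas the 2 large core proteins did not pass the test. Differences between these kinds of subunit were not tested, and the 95% interval of the core protein Uqcrc1 (-0.01 to 0.21) overlapped those of the small subunit Uqcrh (0.06 to 0.29) and the redox subunit Uqcrfs1 (0.10 to 0.33). Uqcrq, a small subunit named as a ubiquinone-binding protein, had 8.66, 8.94, 8.86, 8.67 and 8.60 in HD, against 8.15, 8.04, 8.05, 8.06 and 8.20 in LD. Its groups were far apart, and the rise of 1.56-fold (0.64 ± 0.0625 SE, limma adjusted p = 2.2e-06) was the largest among the members. Cyc1, the haem-bearing cytochrome c1 that hands electrons to cytochrome c, had 9.05, 9.27, 9.11, 9.04 and 8.96 in HD, against 8.56, 8.59, 8.62, 8.72 and 8.74 in LD. Here too no HD array reached down to an LD array, and Cyc1 rose 1.36-fold (0.44 ± 0.0565 SE, limma adjusted p = 2.3e-05).

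Uqcrc2, a core protein related to mitochondrial processing peptidases, had 10.07, 10.03, 9.90, 9.90 and 9.95 in HD, against 9.93, 9.98, 9.91, 9.83 and 9.90 in LD. Its arrays overlapped, with a difference of 0.06 and a 95% interval of -0.03 to 0.15. The other core protein, Uqcrc1, differed by 0.10 (interval -0.01 to 0.21, limma adjusted p = 0.12). HD replicate 2 had the highest Uqcrc1 value, 10.73, and the other 4 HD arrays had 10.44 to 10.53, against 10.36 to 10.48 in LD. The Rieske iron-sulphur protein Uqcrfs1 rose by 0.22. Among the remaining small subunits, the changes were 0.40 for Uqcrb, 0.39 for Uqcr11, 0.35 for Uqcr10 and 0.17 for the hinge protein Uqcrh.

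The nuclear members of complex IV surround the catalytic core, which mitochondrial DNA encodes, and 9 of the 10 rose. Cox5a, a matrix-side subunit, had 9.42, 9.57, 9.53, 9.41 and 9.37 in HD, against 9.00, 9.02, 9.04, 9.01 and 9.06 in LD. The LD arrays lay within a narrow band and all HD arrays above it, a rise of 1.35-fold (0.44 ± 0.042 SE, limma adjusted p = 2e-06). Cox6b1, a subunit on the intermembrane side, had 10.86, 11.05, 10.75, 10.79 and 10.79 in HD, against 10.45, 10.45, 10.42, 10.40 and 10.43 in LD. It too was apart in every array, and it rose 1.34-fold (0.42 ± 0.0502 SE, limma adjusted p = 1.3e-05).

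Cox7b, a small membrane subunit, was the exception in complex IV, with 9.07, 8.96, 8.90, 8.97 and 9.00 in HD, against 9.01, 9.00, 8.99, 8.91 and 8.97 in LD. The groups coincided, and the 95% interval of the difference was -0.08 to 0.09. Cox7a2, a membrane subunit of the ubiquitous isoform, rose by 0.40. Smaller rises were those of Cox7c (0.24), Cox6c (0.23) and Cox4i1 (0.20). Cox6c varied least between HD arrays among the members (SD 0.0141), with 8.64 to 8.67 in HD and 8.38 to 8.44 in LD. Cox8a (0.24), Cox5b (0.20) and Cox6a1 (0.19) rose as deposited, but under the control-row scaling they stood at -0.02, 0.09 and -0.14, with Cox6a1 called lower (limma adjusted p = 0.03) and the others not called. Cox5b was called with overlapping groups, because its lowest HD arrays (9.66 and 9.68) met its highest LD array (9.68).

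**Figure D3:**
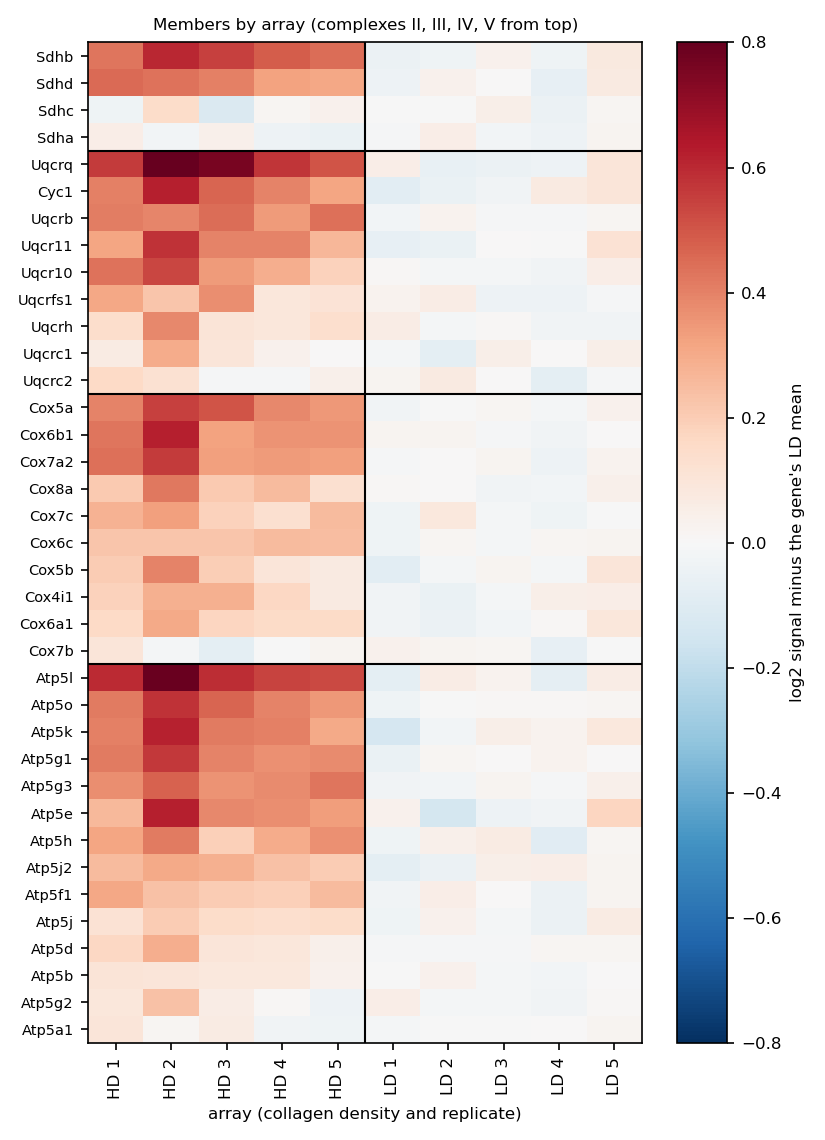
Log2 signal of each of the 37 measured members in each array minus the member's LD mean (rows are genes by complex, columns are arrays, HD left of LD; colour gives the difference). HD columns are mostly above 0, with HD replicate 2 the strongest. Some members, among them Sdha, Sdhc, Uqcrc2, Cox7b, Atp5a1 and Atp5g2, have HD values on both sides of 0, Sdhc from 9.30 to 9.56 around an LD mean of 9.42.

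Complex V consists of a catalytic F1 head with its central stalk, a ring of subunit c in the membrane, a peripheral stalk that holds the head still, and small membrane subunits. The genes of the head and central stalk had the smallest median change, 0.11, against 0.28 for the 4 genes of the peripheral stalk and 0.43 for the 3 accessory genes of the membrane part, all 7 of which rose. The 3 subunit c genes had a median of 0.40. Differences between these parts were not tested, and the 4 measured genes of the head and central stalk ranged from 0.02 to 0.40. Atp5a1, the alpha subunit, had 11.15, 11.07, 11.12, 11.03 and 11.02 in HD, against 11.04, 11.05, 11.05, 11.06 and 11.08 in LD. Its groups overlapped, with a 95% interval of -0.06 to 0.10 for the difference, and under the control-row scaling it was called lower (-0.20, limma adjusted p = 0.004). The catalytic beta subunit Atp5b was called as deposited at 0.08 (limma adjusted p = 0.046) with overlapping groups, lost that call when any of 8 of the 10 arrays was left out, and was called lower under the control-row scaling (-0.14, limma adjusted p = 0.016). The epsilon subunit gene Atp5e of the central stalk rose by 0.40.

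Atp5o encodes the oligomycin sensitivity protein at the top of the peripheral stalk. It had 8.55, 8.71, 8.60, 8.53 and 8.48 in HD, against 8.10, 8.13, 8.14, 8.14 and 8.15 in LD. The LD arrays again lay in a narrow band well below all HD arrays, and Atp5o rose 1.36-fold (0.44 ± 0.0428 SE, limma adjusted p = 2.2e-06). The other stalk genes rose by 0.32 (Atp5h, subunit d), 0.24 (Atp5f1, subunit b) and 0.15 (Atp5j, coupling factor 6). In the membrane part, the gene of subunit e, Atp5k, rose by 0.43 and that of subunit f, Atp5j2, by 0.26.

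Atp5l, the subunit g gene, which with subunit e takes part in joining ATP synthase into dimers, had 3 rows that did not agree in size. On the brightest row it had 10.75, 10.94, 10.74, 10.69 and 10.68 in HD, against 10.07, 10.21, 10.18, 10.08 and 10.21 in LD. That row gave clearly separate groups and a rise of 1.53-fold (0.61 ± 0.0515 SE, limma adjusted p = 6.8e-07), but by its identifier it lies on chromosome 5, whereas the gene lies on chromosome 9. The brighter row on chromosome 9 had 7.61, 7.67, 7.47, 7.54 and 7.54 in HD, against 7.17, 7.21, 7.16, 7.06 and 7.21 in LD, also apart, with a change of 0.41. A dimmer row there differed by 0.13 with overlapping groups, and its LD mean of 5.57 lay below the LD median of the negative control rows (5.67). Its limma adjusted p of 0.064 came from a separate fit, adjusted over all 30604 single-symbol rows. The 1.53-fold size rests on the row from the other chromosome. It was not tested which of the 3 detects Atp5l itself.

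Atp5d, the delta subunit of the central stalk, had 9.87, 9.99, 9.80, 9.79 and 9.74 in HD on its brightest row, against 9.69, 9.69, 9.69, 9.72 and 9.72 in LD. The groups were apart by a small margin, with a rise of 0.13 (limma adjusted p = 0.022) that was not called after quantile normalization (0.09, limma adjusted p = 0.079) or under the control-row scaling (0.02). Its dimmer row, near the floor, had 5.43, 5.43, 5.47, 5.54 and 5.54 in HD, against 5.26, 5.45, 5.26, 5.43 and 5.48 in LD, with overlapping groups and a difference of 0.10. In the fit of all 30604 single-symbol rows, the limma adjusted p was 0.16 for the dimmer row and 0.041 for the brightest.

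**Figure D4:**
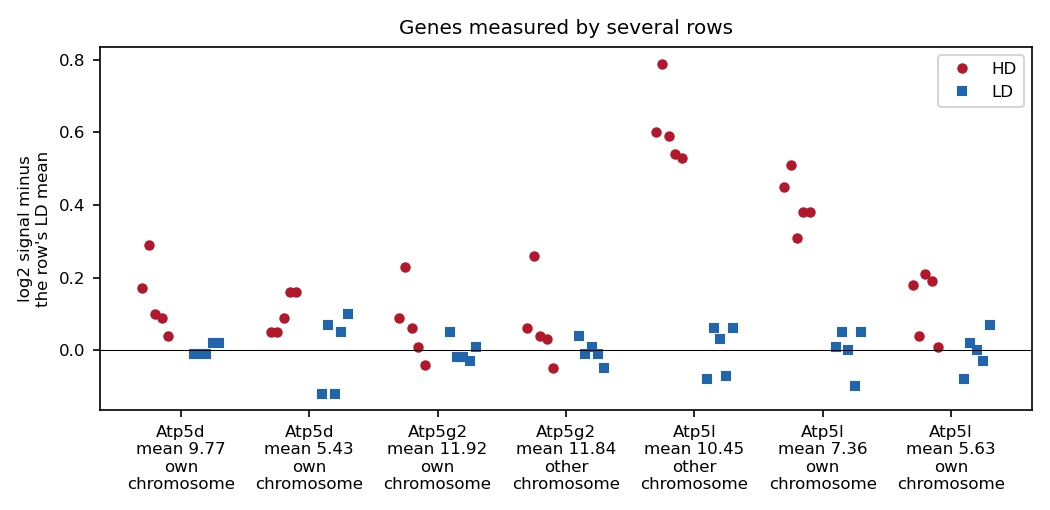
Log2 signal minus the row's LD mean in each array for the 3 members measured by several rows (points are arrays, HD left of LD; labels give the row's mean signal and whether it lies on the gene's own chromosome). The Atp5l rows differ in size of the rise, by 0.61, 0.41 and 0.13, whereas both Atp5g2 rows differ by less than 0.10.

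Subunit c of the rotating ring comes from Atp5g1, Atp5g2 and Atp5g3, whose mature proteins are the same, and only the first and the last of these rose. Their start-site windows are printed because the 3 genes encode 1 product and yet differed in response; build, limits and capitals are as above. Atp5g1 lies at chr11:96075582-96075881, Atp5g3 at chr2:73911277-73911576 and Atp5g2 at chr15:102670998-102671297, all on the minus strand. Atp5g1 has no match to either motif, and Atp5g3 and Atp5g2 have 1 NRF1 match each.
Atp5g1: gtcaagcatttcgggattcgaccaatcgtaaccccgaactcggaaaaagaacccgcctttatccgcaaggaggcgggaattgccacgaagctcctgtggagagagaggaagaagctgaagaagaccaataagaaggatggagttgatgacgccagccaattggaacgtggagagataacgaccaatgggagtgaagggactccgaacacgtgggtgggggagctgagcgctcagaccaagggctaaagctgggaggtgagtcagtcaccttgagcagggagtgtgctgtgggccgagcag
Atp5g3: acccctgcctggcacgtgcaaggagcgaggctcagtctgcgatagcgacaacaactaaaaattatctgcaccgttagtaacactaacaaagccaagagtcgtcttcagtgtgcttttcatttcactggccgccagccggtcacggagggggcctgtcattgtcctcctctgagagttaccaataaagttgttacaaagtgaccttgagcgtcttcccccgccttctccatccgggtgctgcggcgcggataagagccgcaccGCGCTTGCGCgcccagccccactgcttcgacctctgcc
Atp5g2: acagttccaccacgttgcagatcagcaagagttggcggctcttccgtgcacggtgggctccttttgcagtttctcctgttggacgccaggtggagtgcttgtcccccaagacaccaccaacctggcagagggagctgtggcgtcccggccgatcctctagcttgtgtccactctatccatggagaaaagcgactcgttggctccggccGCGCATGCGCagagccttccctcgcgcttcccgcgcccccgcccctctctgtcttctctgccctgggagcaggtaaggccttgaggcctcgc

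Atp5g1 had 8.98, 9.13, 8.96, 8.93 and 8.94 in HD, against 8.51, 8.58, 8.57, 8.59 and 8.57 in LD, and rose 1.34-fold (0.43 ± 0.0417 SE, limma adjusted p = 2.3e-06). For Atp5g3 the values were 9.29, 9.39, 9.28, 9.30 and 9.35 in HD and 8.89, 8.90, 8.94, 8.91 and 8.96 in LD, a rise of 1.32-fold (0.40 ± 0.0348 SE, limma adjusted p = 7.8e-07). Both genes had all HD arrays above all LD arrays. Atp5g2 had 11.98, 12.12, 11.95, 11.90 and 11.85 in HD, against 11.94, 11.87, 11.87, 11.86 and 11.90 in LD. These groups overlapped, and the difference of 0.08 had a 95% interval of -0.02 to 0.18; under the control-row scaling Atp5g2 was called lower (-0.22, limma adjusted p = 0.0034). A further Atp5g2 row, by its identifier on chromosome 7, differed by 0.07. Within arrays, Atp5g1 over Atp5g2 differed by 0.35 and Atp5g3 over Atp5g2 by 0.33 between HD and LD (exact permutation p = 0.0079 each, adjusted 0.012), whereas Atp5g1 over Atp5g3 differed by 0.02 (exact permutation p = 0.49). Probes of genes with such similar coding sequences may not separate them fully.

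Over the start-site windows of all members, 30 of 38 genes had an entry in the RefSeq table. The ETS motif CCGGAAG occurred in 12 of the 30, or 40.0%, against 9.93% of all 27025 genes with a window and 17.9% of the 11123 tested genes with one. The NRF1 motif occurred in 10 of the 30, or 33.3%, against 5.19% of all genes and 10.1% of tested genes. AAGATGGCG, a motif of YY1, was found in Atp5j and Atp5j2, 6.67% of the 30, against 1.64% of all genes and 3.07% of tested genes. Both strands were searched, and no match of 1 motif overlaps that of another in the windows printed above. Of the windows of members that rose, 12 of 25 had the ETS motif, and of members that did not pass the test, 0 of 4. For the NRF1 motif the counts were 6 of 25 and 3 of 4. Sdhc, Uqcrc2 and Atp5a1, which did not pass, had no window, and the unmeasured Atp5c1 is in neither count. This split was not made for all genes tested, and a link between motif and change was not tested. Motif matches are matches of letters in a short window and say nothing of binding.

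Among the factors themselves, Nrf1 differed by -0.02 and Gabpa, the DNA-binding subunit of GABP, by -0.03, and neither passed the test. Gabpb1, the other GABP gene listed, differed by 0.07 (limma adjusted p = 0.073), though all its HD arrays lay above all LD arrays. It was called higher after quantile normalization (0.13, limma adjusted p = 0.0066) and under the control-row scaling (0.15, limma adjusted p = 0.0079). Of 9 tested regulators of mitochondrial gene expression, 5 rose and 0 fell (31.4% and 19.5% of all genes tested), with a median change of 0.15. Pprc1, a coactivator of the PGC-1 family, had 8.41, 8.48, 8.37, 8.37 and 8.36 in HD, against 7.77, 7.69, 7.85, 7.86 and 7.90 in LD, and rose by 0.58 with groups far apart. Tfb2m, a transcription factor of mitochondrial DNA, rose by 0.32 and Ppargc1b, a further PGC-1 coactivator, by 0.23. Ppargc1a lay below the floor.

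The core subunits of complex IV that mitochondrial DNA encodes did not pass the test where they were measured. COX1 had 11.95, 11.94, 11.90, 11.88 and 11.95 in HD, against 12.09, 12.14, 12.02, 11.88 and 11.90 in LD, and differed by -0.08 (limma adjusted p = 0.18). COX2 differed by -0.07 (limma adjusted p = 0.25), and in both genes the groups overlapped. Under the control-row scaling COX1 was called lower. The other 4 genes of this list had no row naming them alone and were not analysed here.

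Assembly factors, which insert cofactors and join subunits without remaining in the complex, were a mixed list: 16 of 27 tested rose and 1 fell, with a median change of 0.17, where 31.4% of all genes tested rose and 19.5% fell, with a median of 0.06. For complex II, Sdhaf2, which attaches the flavin to Sdha, rose by 0.27 and Sdhaf1, which serves the iron-sulphur protein, by 0.17. For complex IV, 10 of 16 rose, led by Coa6 (0.37), Coa3 (0.35) and Cox18 (0.34), which act on the maturation of the core subunits. Among the 10, Cox20 (0.14) was called with overlapping groups, and its call ended when any of 7 of the 10 arrays was left out. All 3 factors of complex V rose, by 0.19 (Atpaf2), 0.18 (Atpaf1) and 0.15 (Tmem70). Complex III differed, with Ttc19 higher by 0.19 and Uqcc3 lower by 0.14 among 4 tested. Uqcc3 had 7.54, 7.61, 7.50, 7.47 and 7.40 in HD, against 7.52, 7.68, 7.66, 7.68 and 7.67 in LD, so that LD replicate 1 lay among the HD arrays, and its call ended under quantile normalization, under the control-row scaling and without HD replicate 5 (limma adjusted p = 0.053).

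Of 12 tested isoforms and accessory proteins, 5 rose and 3 fell (median change 0.10), where 31.4% of all genes tested rose and 19.5% fell, so the counts lie near those of all genes. Cox7a1 was among the 5 at 0.13, with overlapping groups and an LD mean of 5.46, below the LD negative control median of 5.67. Its call ended when any of 5 of the 10 arrays was left out. Ndufa4, a subunit first assigned to complex I and found in complex IV, had 11.27, 11.36, 11.24, 11.21 and 11.23 in HD, against 10.62, 10.67, 10.69, 10.61 and 10.74 in LD. It rose 1.51-fold, with all HD arrays above all LD arrays. Atp5mpl and Atp5md, small membrane proteins of ATP synthase, rose by 0.50 and 0.48. Under the control-row scaling these 3 changes were smaller, at 0.38, 0.30 and 0.30. Higd1a, a hypoxia-induced inner membrane protein that binds complex IV, had 6.81, 6.85, 6.90, 6.81 and 6.85 in HD, against 7.57, 7.57, 7.47, 7.32 and 7.48 in LD. It fell by 0.64 (limma adjusted p = 2.5e-07), the groups again being apart. Cox7a2l, which joins complexes III and IV into supercomplexes, fell by 0.29. Dmac2l, the ATP synthase coupling factor B, fell by 0.22, a call that ended under the control-row scaling (-0.10).

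**Figure D5:**
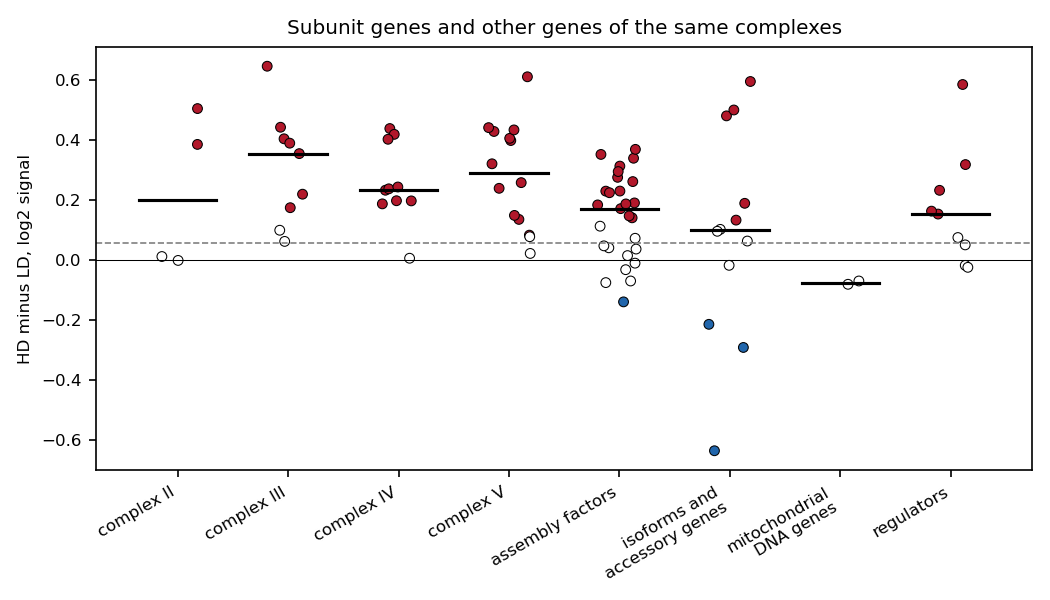
Changes (HD minus LD, log2 signal) of the tested members by complex and of the tested genes in the lists of assembly factors, isoforms and accessory genes, mitochondrial DNA genes and regulators (points are genes, red where called higher, blue where called lower, open where not called; bars are medians, the dashed line that of all genes tested). Member points lie mostly above 0, with medians of 0.20 to 0.35 by complex, and the isoform and accessory list spreads from -0.64 to 0.59.

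Arrays of a group also differed in their mean over the members. Averaged over the 37 members and given relative to the LD mean, HD arrays 1 to 5 stood at 0.277, 0.385, 0.269, 0.232 and 0.217, against -0.02, -0.002, 0.002, -0.019 and 0.04 in LD arrays 1 to 5. The 2 groups did not overlap in this mean. HD replicate 2 was the highest HD array for 27 of 37 members and HD replicate 5 the lowest for 21. Such counts were not made for all genes tested, so whether this is particular to the members was not tested. In HD replicate 2 the positive control rows had a median of 9.35, against 9.24 to 9.29 in the other HD arrays and 9.20 to 9.23 in LD arrays, and its part in the member values was not tested. Without any 1 array, 29 or 30 members were called higher, where 4704 to 5603 of the 17800 genes tested were. The median SD of a member was 0.0856 over HD arrays and 0.0394 over LD arrays. Across members, which are not independent replicates, the change and the mean signal had a Spearman rho of -0.227 over 37 genes, and of 0.04 over all genes tested.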

How the data were processed

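The deposited log2 values came from RMA, as the submitters' processing notes name it. RMA corrects background, equalises probe distributions between arrays and combines a row's probes into 1 value; its software, version, annotation and build are not stated in the sources used here. That they are log2 was taken from the values (1.49 to 14.3, array medians 5.19 to 5.28). Among its 72688 rows, 6732 were control rows. Gene names came from the platform annotation, where 30604 rows named 1 symbol and 2146 several; IDs of 22818 rows matched RefSeq's mouse gene table (GRCm38.p6), used for names and chromosomes, and 827 symbols were updated. A gene was represented by its single-symbol row with the highest mean over 10 arrays and was tested where this mean exceeded 5.24, the median of all row means. The platform's older names were kept for ATP synthase genes.

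HD minus LD was fitted with limma 3.58.1 (R 4.3.3; lmFit and eBayes, two-sided, no covariates) on all 10 arrays, with Benjamini-Hochberg adjustment over 17800 genes and a threshold of 0.05; the fit was tested on simulated data. Adjusted p-values of dimmer rows came from a separate limma fit of all 30604 single-symbol rows without a floor, adjusted over those rows. Within-array log ratios of 9 gene pairs were compared by exact permutation. No 2 arrays held identical values (0 pairs). Across genes, the deviations of HD and LD arrays of 1 number from their groups' means correlated at 0.186, -0.0909, -0.0358, 0.216 and -0.0249, and the numbers were therefore not used as pairs. Start-site windows came from RefSeq.

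Per-array values were given for, in each complex, the 2 called members with the largest change and that with the smallest, for members whose rows differ in call and for the subunit c genes. From the other lists, up to 3 called genes with the largest change and those against the majority were named. Array values were also printed for Pprc1, COX1, Uqcc3, Ndufa4 and Higd1a of those lists, which this rule does not cover. Outside this rule, Nrf1, Gabpa, Gabpb1, Ppargc1a, Cox7a1, Cox20, COX1 and COX2 were named after their values were seen. So were the markers Krt7, Krt8, Krt18, Cdh1, Cldn7, Col1a1 and Col1a2. The members and all lists were chosen with earlier results of these data known. Alternatives were a replicate block, quantile normalization, median centring, scaling on control rows, no filter and a stricter filter (6.96), other choices of row, other variance models, array weights, ordinary t statistics, a 1.5-fold threshold and leaving out each array. No scan date or chip batch was used here, and a batch along the groups and collagen density cannot be told apart.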

Additional observations from a re-analysis of the deposited data

Results flagged for a closer look

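In 14 cases 1 array of a group of 5 stood apart from the other 4 by a gap that Dixon's test sets at its 95% level, over 174 groups of 87 genes, where chance gives about 1 in 20 groups. Of these, 6 were among the members of complexes II to V, and 4 of the 6 were the high value of HD replicate 2: Uqcrh at 9.19 (the other HD arrays 8.90 to 8.95), Cox6a1 at 12.57 (12.42 to 12.44), Atp5g1 at 9.13 (8.93 to 8.98) and Atp5l at 10.94 (10.68 to 10.75). Among LD arrays, Cox7c stood high in replicate 2 at 7.97 (the others 7.85 to 7.88) and Atp5g1 low in replicate 1 at 8.51 (8.57 to 8.59).

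HD replicate 2 was also the high array for the assembly factors Bcs1l at 8.21 (the others 8.03 to 8.07), Cox10 at 7.93 (7.68 to 7.73) and Cox15 at 8.76 (8.58 to 8.61), and for Atp5md at 10.96 (10.79 to 10.82). The remaining cases were Coa5, low in HD replicate 4 at 8.34 (8.41 to 8.43), Uqcc3, low in LD replicate 1 at 7.52 (7.66 to 7.68), Cox18, high in LD replicate 5 at 8.83 (8.64 to 8.68), and Polrmt, high in LD replicate 4 at 7.29 (7.20 to 7.22).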

How the results depend on the processing

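Of the 30 member rises, 25 kept their call and direction under all 22 alternative settings, which do not include the added 1.5-fold threshold. The others were Atp5b, Atp5d, Cox5b, Cox6a1 and Cox8a. With the replicate block 29 members rose, Atp5b being lost (limma adjusted p = 0.08), and no other member call changed; 28 rose after quantile normalization, 29 after median centring or with no filter, and 29 to 30 without any 1 array. Over all genes, 7066 of 17799 rose after quantile normalization, against 5589 of 17800 as deposited. The rises over all genes numbered 5654 with the replicate block, 5426 after median centring and 5576 of 30142 with no filter. With the stricter filter they numbered 4201 of 10907. Without any 1 array the rises over all genes ran from 4704 to 5603. The control-row scaling gave 25 higher and 4 lower members, 0 lower assembly factors and 8742 higher genes, and quantile normalization 0 lower assembly factors, whose count ran from 0 to 2 without single arrays (0 without HD replicate 5, 2 without HD replicate 2). With a 1.5-fold threshold added, 2 members were called higher (0, 1, 0 and 1 in complexes II, III, IV and V; Atp5l does not reach it on its own chromosome's row, at 0.41), with 0 higher and 0 lower assembly factors and 138 higher and 278 lower genes. Directions turned under quantile normalization for Sdhc (-0.0228), Cox7b (-0.0153), Atp5a1 (-0.0174), Bcs1l (0.032) and Nrf1 (0.033), none of them called, and with array weights for Sdhc (-0.0011). Under the control-row scaling they turned for Sdhc (-0.0703), Uqcrc1 (-0.0745), Uqcrc2 (-0.063), Cox6a1 (-0.14), Cox7b (-0.0368), Cox8a (-0.0199), Atp5a1 (-0.20), Atp5b (-0.14), Atp5g2 (-0.22), Sdhaf4 (0.21, limma adjusted p = 0.0061), Bcs1l (0.0202), Cmc1 (-0.0037), Nrf1 (0.0587) and Yy1 (-0.0482). Without single arrays the signs of uncalled genes changed within -0.0167 to 0.0095 (Sdha), -0.0238 to 0.0407 (Sdhc), -0.0184 to 0.0257 (Cox7b), -0.0071 to 0.0404 (Cox19), -0.0684 to 0.0112 (Sdhaf4), -0.0447 to 0.0013 (Bcs1l) and -0.0933 to 0.0152 (Higd2a). The cause of these shifts was not tested. The lowest group mean of a member was 6.89 (Uqcr10 in LD), beside a median of 5.67 for the negative control rows in LD; what background does to the changes was not tested.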
